A study of Homo sapiens with 208 samples.

Results

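The expression difference between the gefitinib-resistant line PC9M2 and its parent PC9 was measured while both lines were exposed to gefitinib, an inhibitor of the EGF receptor (EGFR) tyrosine kinase. PC9 is a human lung adenocarcinoma line whose EGFR carries an activating deletion in the kinase domain. PC9M2, named PC9GRM2 in the sample labels, was derived from PC9 by long culture with gefitinib and is 1 resistant clone, so that what belongs to resistance and what belongs to this clone cannot be told apart. Of the 208 one-colour arrays of the series, the 52 with gefitinib and without EGF were chosen by their treatment label, 26 of PC9 and 26 of PC9M2, 1 for each of 26 sampling times from 0 to 24 h. Both lines had been starved for 48 h and received 0.5 μM gefitinib before the sampling at 0 h. Values are also given for the 26 untreated arrays of each line and for the 26 arrays of each line that had gefitinib together with 100 ng/ml EGF. Each line had 1 culture course per treatment with 1 array at each time, so time points stood in for replicates and the p-values measure only the spread over time points.

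Signal from mutant EGFR runs mainly through the RAS, RAF, MEK and ERK kinases and through PI3K and AKT. Active ERK switches on early transcription factors such as EGR1 and FOS, the ETS factors ETV1, ETV4 and ETV5, and a set of inhibitors that dampen the same pathway, among them the phosphatase DUSP6 and the Sprouty and Spred proteins. The transcript level of these genes is widely used as a readout of ERK signalling, and blocking EGFR in sensitive cells lowers it. ERK and AKT signals also permit the cyclin D and cyclin E activity that releases E2F factors, which switch on the genes of DNA replication.

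The arrays that rest on each other were checked first. The lines shared 0 of the 52 slides and 0 scan days, and a slide carried arrays of a single line and time, 1 for each of the 4 treatments, so that line and scanning period cannot be told apart for a line difference taken alone. The difference between the line difference under gefitinib and the line difference without treatment cancels slide and scan day, since the gefitinib and untreated arrays of a line at a time point lay on the same slide. The scanner ceiling also differed: 183 to 1113 features were saturated on the PC9 gefitinib arrays and 0 on those of PC9M2, which touched 399 tested genes. Each gefitinib array had between 26384 and 35938 features well above background. On 1 of the 52 slides the labels went against the data. At 0.5 h in PC9M2, the array labelled EGF with gefitinib had DUSP6 at 12.54 on the log2 scale and the array labelled EGF had it at 7.75, against 13.06 on the untreated and 7.86 on the gefitinib array of that slide. None of the 52 gefitinib arrays or of the untreated arrays was at odds with its label by this gene, and values under EGF with gefitinib are given with and without 0.5 h where they are counted.

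The epithelial markers EPCAM, CDH1, KRT7, KRT8, KRT18 and KRT19 were well above background on all 26 gefitinib arrays of both lines, and so, on 25 and 26 arrays, was NAPSA, a protease of lung adenocarcinoma. NKX2-1, the lung lineage factor often used to mark adenocarcinoma, was well above background on 3 arrays of PC9 and 2 of PC9M2. Of the 22 markers listed for fibroblasts, leukocytes, endothelium and red cells, 11 were bright enough to be tested, and their summed signal ranged from 2452 to 4752 in PC9 and from 2225 to 4146 in PC9M2. COL1A2, LUM and TEK were well above background on 0 arrays of either line.

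The regulatory sequence just before the start of 4 genes described below is shown because each gene belongs to a group that differed between the lines and its promoter holds an element through which growth factor, interferon or E2F signals act. The 250 bases before the start are from RefSeq, build GRCh38.p14, read along the gene's own strand, with the element in capitals: the CArG box of serum response factor in EGR1 (chr5:138465229-138465478, plus strand), the interferon element GAAANNGAAA in IFI6 (chr1:27672193-27672442, minus strand) and BST2 (chr19:17405631-17405880, minus strand, matches overlapping), and an E2F element, TTTCCCGC or TTTGGCGC, in GINS2 (chr16:85688955-85689204, minus strand, found as its reverse complement).
EGR1: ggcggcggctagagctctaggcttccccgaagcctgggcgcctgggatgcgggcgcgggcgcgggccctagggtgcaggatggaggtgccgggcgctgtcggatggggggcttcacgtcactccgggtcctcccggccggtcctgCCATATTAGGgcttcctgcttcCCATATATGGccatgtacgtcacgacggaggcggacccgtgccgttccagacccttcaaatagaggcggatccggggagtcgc
IFI6: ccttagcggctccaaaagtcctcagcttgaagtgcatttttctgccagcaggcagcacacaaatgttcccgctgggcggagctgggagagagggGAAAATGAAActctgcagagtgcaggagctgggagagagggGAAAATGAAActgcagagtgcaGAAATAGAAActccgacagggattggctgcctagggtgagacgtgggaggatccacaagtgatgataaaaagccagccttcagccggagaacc
BST2: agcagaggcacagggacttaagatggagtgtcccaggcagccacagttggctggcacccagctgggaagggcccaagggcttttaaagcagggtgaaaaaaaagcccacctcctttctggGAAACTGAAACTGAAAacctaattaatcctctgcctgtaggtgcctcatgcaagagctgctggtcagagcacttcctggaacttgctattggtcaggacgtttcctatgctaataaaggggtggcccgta
GINS2: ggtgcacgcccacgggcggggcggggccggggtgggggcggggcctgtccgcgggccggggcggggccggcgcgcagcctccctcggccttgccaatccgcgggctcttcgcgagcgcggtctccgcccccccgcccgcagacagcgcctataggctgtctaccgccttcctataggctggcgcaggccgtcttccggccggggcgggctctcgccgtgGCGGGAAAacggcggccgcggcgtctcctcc
Both strands were searched. The interferon element was found before 19 of the 27 interferon-stimulated genes listed that had a promoter in the table, against 3.72% of all 27195 genes with one, the E2F element before 13 of 29 DNA replication genes, against 2.37%, the CArG box before 1 of 13 ERK output genes (EGR1 itself), against 1.45%, and the sterol element TCACNCCAC before 1 of 22 sterol and fatty acid genes, against 1.09%. A match in these letters is a description and not a measured binding site.

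Levels are log2 normalized signals, and a difference of 1 on this scale is a 2-fold difference. Of 13254 genes tested by limma on the 26 paired differences, 4068 were higher in PC9M2 under gefitinib (30.7% of the genes tested) and 4540 lower (34.3%), with a median difference of -0.03 over all genes. With the variance inflated for the likeness of neighbouring time points, 2852 were higher and 3124 lower. With scan day as a random block these counts were 2995 and 3270. Called and at least 2-fold higher were 1002 genes (7.56%), and called and at least 2-fold lower were 1188 (8.96%), and after normexp background correction 318 and 334. Without treatment 4126 genes were higher (31.1%) and 4902 lower (37.0%), and under EGF with gefitinib 4174 were higher (31.5%) and 4803 lower (36.2%), or 4122 and 4734 without the 0.5 h time point. Line differences were thus common under the 3 treatments compared, and a share of a gene group has to be read against these shares. The line difference under gefitinib was more positive than that without treatment in 2260 genes (17.1%) and more negative in 2249 (17.0%). These counts were 508 and 540 with time points 3 h apart, 462 and 605 in the first 13 time points, and 1000 and 1025 without pairing. Among the 4509 genes called over all time points, the response to gefitinib was larger in PC9 than in PC9M2 in 3681. These genes were selected by the difference between the responses. Over all 13254 genes the median absolute response was larger in PC9 too, 0.44 against 0.32 in PC9M2. The count is therefore no result about the called genes.

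The genes that ERK signalling induces differed between the lines mainly in the presence of the drug. Without treatment the lines had nearly the same level of DUSP6, EGR1, ETV5 and SPRY4, with differences between -0.29 and -0.02, and under gefitinib all 4 were higher in PC9M2, by 3.35 to 4.44 log2 units over the course. In the first hours under gefitinib the lines were close or PC9M2 was the lower. The gap opened at 2 h for EGR1, at 3 h for DUSP6 and SPRY4 and after 4 h for ETV5.

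DUSP6 encodes the phosphatase that removes the activating phosphates from ERK and is one of its closest transcriptional readouts. Its level ranged from 5.0 through a median of 6.1 to 9.3 in PC9 under gefitinib and from 7.8 through 11.7 to 12.2 in PC9M2. The ranges overlapped because of the first hours. At 0 h PC9 was at 9.32 and PC9M2 at 7.76, at 2 h they were at 8.40 and 8.38, at 8 h at 6.44 and 11.89, and at 24 h at 5.21 and 11.69. The untreated arrays at 24 h were at 13.68 and 13.26, so that PC9M2 had come back towards its untreated level and PC9 had not. DUSP6 was higher in PC9M2 at 22 of 26 time points, by 4.44 ± 0.49 (SE, adjusted p = 5.6e-09), against -0.19 without treatment, and the difference between these differences was 4.64 (adjusted p = 1.6e-08). Gefitinib lowered DUSP6 by a mean of 6.80 log2 units in PC9 and 2.17 in PC9M2.

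EGR1, an early growth response transcription factor, whose promoter with its CArG boxes is printed above, started low in both lines as well. In PC9 under gefitinib its level was 8.30 at 0 h and 6.34 at 24 h, and in PC9M2 it was 7.32 at 0 h, 7.49 at 1 h, 9.52 at 2 h, 11.52 at 8 h and 10.95 at 24 h. PC9M2 was higher at 24 of 26 time points, by 4.08 ± 0.34 (SE, adjusted p = 1.9e-11). The mean response to gefitinib was -3.78 in PC9 and 0.60 in PC9M2. EGR2, of the same family, differed by 3.38 ± 0.28 under gefitinib and by 0.53 without it.

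SPRY4, a Sprouty inhibitor of RAS signalling, ranged in PC9 from 3.9 through 4.9 to 6.5 and in PC9M2 from 5.0 through 8.9 to 9.6. At 0.5 h, PC9M2 was at its lowest level, 4.98, and it stood at 5.83 at 2 h and at 8.99 at 8 h. The mean difference was 3.35 ± 0.36 (SE, adjusted p = 2.4e-09) and -0.02 without treatment. ETV5, an ETS factor, stood near its untreated level in both lines at 0 h, 9.04 in PC9 and 9.35 in PC9M2, and the lines parted later, to 2.68 in PC9 and 7.84 in PC9M2 at 24 h. In PC9 its probe was well above background on 11 of 26 arrays, so the PC9 values of the later hours are near or below what the array could measure. Its difference was 3.61 ± 0.44 (SE, adjusted p = 2.7e-08).

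**Figure D1:**
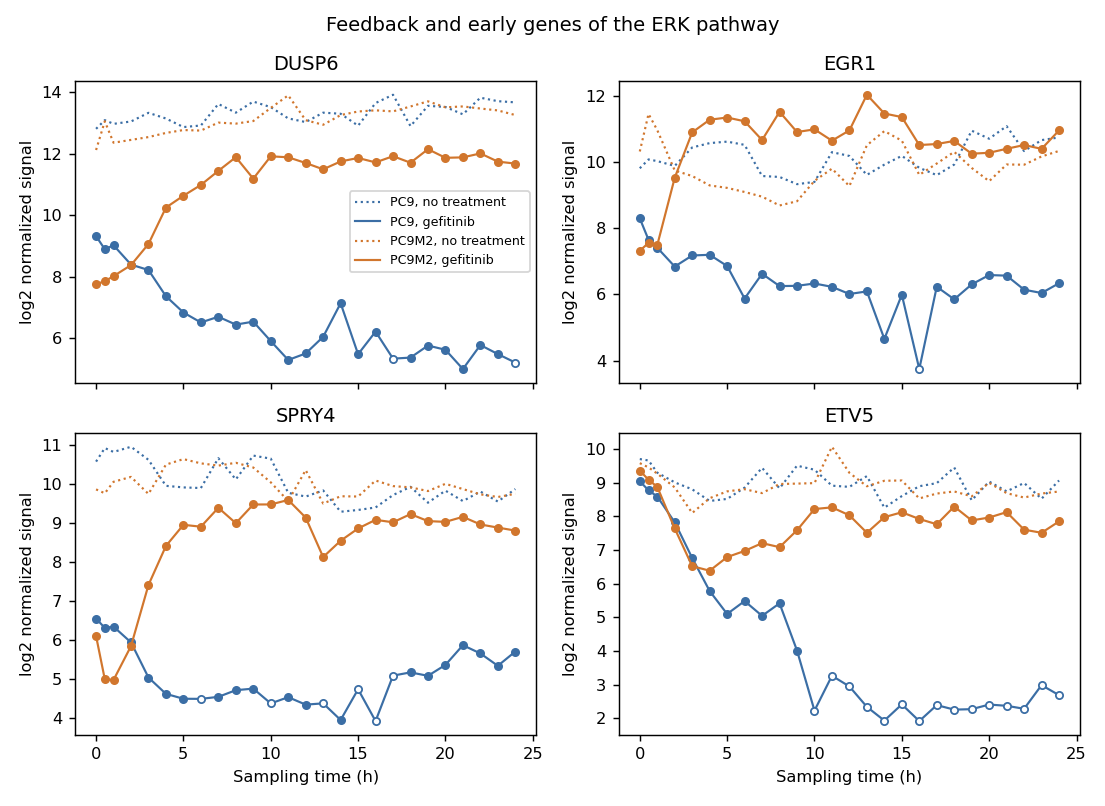
Log2 normalized signal of DUSP6, EGR1, SPRY4 and ETV5 against sampling time in hours, 1 array per point, for PC9 (blue) and PC9M2 (orange) under gefitinib (solid lines with circles) and without treatment (dotted lines); open circles were not well above background. PC9M2 was below PC9 at 0 to 2 h for DUSP6 and SPRY4, and from 4 h on all PC9M2 points lay above the PC9 points of the same time.

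The same shape was seen over the list of ERK output genes. Of 20 tested members, 17 were higher in PC9M2 under gefitinib and 1 lower, with a median difference of 1.41, against 3 higher and 8 lower with a median of -0.20 without treatment. The median at single time points was -0.48 at 0 h, -0.55 at 1 h, -0.32 at 2 h, 0.32 at 3 h and 1.75 at 4 h, and after that it lay between 0.99 and 3.15. Without treatment it kept between -0.86 and 0.32 at all 26 times. The line difference was more positive under gefitinib than without it in 17 of 20 members and more negative in 0. Under EGF with gefitinib 16 were higher and 1 lower, with a median of 1.28, and without 0.5 h, 15 were higher, with a median of 1.27. DUSP6 differed there by 4.05, and by 4.08 without 0.5 h.

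By role, the MAP kinase phosphatase DUSP4 was higher by 1.51 ± 0.20 (untreated -0.46), while the phosphatase DUSP5 did not pass the test (0.11 ± 0.14, adjusted p = 0.50; untreated -0.54). Of 5 Sprouty and Spred inhibitors tested 4 were higher, SPRED1 by 3.45 ± 0.34, SPRED2 by 2.53 ± 0.37, SPRY4 as above and SPRY1 by 0.31 ± 0.10, while SPRY2 did not pass the test (0.09 ± 0.14, adjusted p = 0.56). Another probe of SPRED2 differed by 0.26, and the SPRED1 and ETV1 probes were well above background on 6 and 5 PC9 arrays. All 3 ETS factors were higher, ETV1 by 2.83 ± 0.21 and ETV4 by 1.26 ± 0.20 beside ETV5. Of 9 other induced genes 8 were higher, among them the ephrin receptor EPHA2 by 1.88 ± 0.22, PHLDA1 by 1.71 ± 0.35, the AP-1 subunit FOSL1 by 1.31 ± 0.24, EPHA4 by 1.10 ± 0.15, cyclin D1 (CCND1) by 0.89 ± 0.16, MYC by 0.88 ± 0.32 (well above background on 8 and 12 arrays) and FOS by 0.71 ± 0.22. FOS was lower in PC9M2 by 1.85 log2 units without treatment, so its order between the lines was opposite under the drug. IER3, an early gene that protects from apoptosis, was the member that was lower, by a difference of -2.13 ± 0.35, with 1 PC9M2 array at 2.3 and the remaining time points giving -1.78. It was lower without treatment too (-1.79).

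DOK7, an adaptor of the muscle receptor kinase, ranged from 2.0 through 5.3 to 7.5 in PC9 and from 9.0 through 10.0 to 10.9 in PC9M2 without overlap. It differed by 4.40 ± 0.28 under gefitinib and by 1.42 without it. Its lowest PC9 values are near or below what the array could measure, so the size of the difference under gefitinib is uncertain. CXCL8, the chemokine interleukin 8, was well above background on 0 arrays of either line under gefitinib and on 24 untreated PC9 and 7 untreated PC9M2 arrays, so the lines differed without the drug (-2.94) and no fold under the drug can be given.

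The genes whose line difference went down most under gefitinib were those that rose in PC9 and less in PC9M2. RADIL, an effector of the small GTPase RAP in cell adhesion, ranged from 7.4 through 10.6 to 11.1 in PC9 and from 2.9 through 4.9 to 7.0 in PC9M2, so that no PC9M2 array reached the lowest PC9 array. Its difference was -5.10 ± 0.27 (SE, adjusted p = 7.9e-16), against -1.28 without treatment, and gefitinib raised it by 6.92 in PC9 and 3.10 in PC9M2. PRODH, the proline dehydrogenase of mitochondria, was at 4.5 to 9.1 in PC9 with a median of 7.9 and at 3.2 to 5.1 in PC9M2 with a median of 4.6. It differed by -2.96 ± 0.28 under gefitinib and by 0.00 without it. The estrogen-responsive receptor GPER1 (-3.02 ± 0.29), the steroid enzyme CYP17A1 (-3.29 ± 0.35), the muscle ubiquitin ligase TRIM63 (-2.73 ± 0.24), the potassium channel KCNJ13 (-2.62 ± 0.23) and the actin-severing protein SCIN (-2.60 ± 0.14) were lower in PC9M2 under gefitinib and differed by -0.33 to 0.20 without it. In PC9M2 the probes of TRIM63 and CYP17A1 were well above background on 5 and 7 arrays. The lowest PC9M2 values of RADIL and PRODH are also near or below what the array could measure. So are the untreated RADIL levels of both lines, which leaves the sizes of its 2 responses and of its untreated difference uncertain. ZBED2, a zinc finger factor, turned over: it was lower in PC9M2 by 1.77 ± 0.11 under the drug and higher by 0.81 without it.

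The genes of DNA replication crossed over during the course. In the first period, 0 to 7 h, their median difference was -1.02, in the middle period, 8 to 15 h, 0.05, and in the last, 16 to 24 h, 1.21. Over the whole course this gave 6 of 35 higher and 4 lower with a median of 0.10, which hides the crossing. The late minus early line difference passed the test as positive in 33 of 35 members and negative in 0, where over all genes it was positive in 3190 (24.1%) and negative in 3047 (23.0%). Since early and late arrays were scanned on different days, the same contrast was also taken of the gefitinib minus untreated line difference, in which slide and scan day cancel: it was positive in 29 of 35 members and negative in 0, against 1245 genes (9.39%) and 1145 genes (8.64%) of all.

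Both lines took part in the crossing. The median level of the 35 genes was 10.4 in the first and 9.26 in the last period in PC9, and 9.91 and 10.8 in PC9M2. GINS2, a subunit of the replicative helicase, whose promoter with the E2F element is printed above, was at 11.93 in PC9 and 10.39 in PC9M2 at 0 h, at 10.89 and 10.29 at 8 h, and at 9.01 and 11.73 at 24 h. Its difference moved by 4.03 from the first to the last period (adjusted p = 4.8e-11), and by 2.96 after subtraction of the untreated difference. POLE2, a subunit of DNA polymerase epsilon, moved by 4.20 (2.91 after subtraction), cyclin E2 (CCNE2) by 4.08 (2.85), the ribonucleotide reductase subunit RRM2 by 3.99 (2.82), the replication initiation factor MCM10 by 3.67 (3.07) and its partner CDC45 by 3.59 (2.28). Cyclin E1 (CCNE1) kept 1 sign through the course and was higher in PC9M2 at all 26 time points by 1.38 ± 0.13. UHRF1, which maintains DNA methylation at replication, was higher by 1.65 ± 0.23. In RNA from whole cultures, fewer cells in S phase and less of these transcripts per cell cannot be told apart.

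Mitotic genes did not cross in this way. Of 34 tested, 28 were lower in PC9M2 under gefitinib and 1 higher, with a median difference of -0.64 (untreated 22 lower and 4 higher, median -0.32), and 20 were more negative under gefitinib than without it. The median lay below 0 from 0 to 23 h and at 0.15 at 24 h. KIF20A, a kinesin of cell division, was lower by 1.43 ± 0.09, the phosphatase CDC25C by 1.10 ± 0.09, separase (ESPL1) by 1.03 ± 0.12, the spindle protein ASPM by 1.03 ± 0.22 and the kinetochore protein CENPF by 1.63 ± 0.19, with another CENPF probe at -0.33. The survivin gene BIRC5 was higher by 0.26 ± 0.09 under gefitinib, at 13 of 26 time points, and by 0.97 without it. Among genes of G1 control 4 of 14 were higher and 7 lower: the CDK inhibitors CDKN2B and CDKN1A had differences of -1.18 ± 0.15 and -1.07 ± 0.20, and CDKN1B one of -1.44 ± 0.17 by its most variable probe and 0.45 by its other probe.

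**Figure D2:**
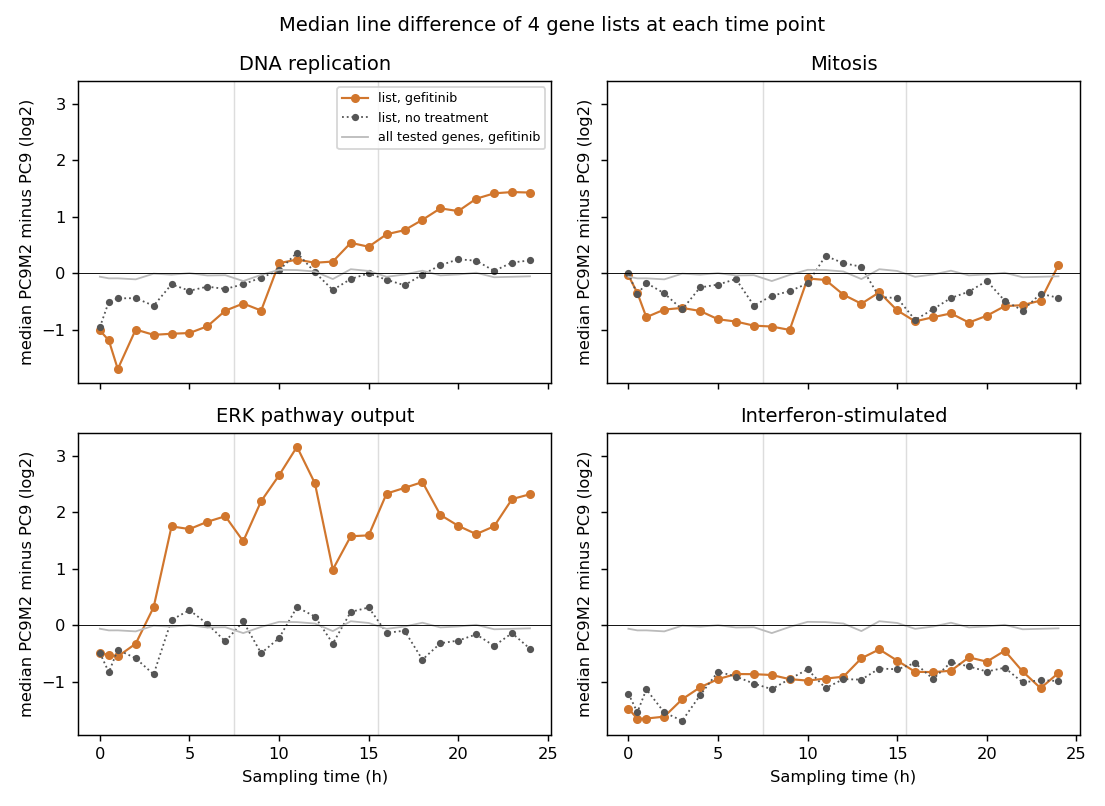
Median line difference (PC9M2 minus PC9, log2) of 4 gene lists against sampling time in hours, under gefitinib (orange) and without treatment (dotted), with the median of all tested genes under gefitinib in grey; grey vertical lines part the 3 periods. DNA replication genes went from -1.01 at 0 h to 1.43 at 24 h under gefitinib, ERK output genes from -0.48 to 2.32, and the interferon list stayed below 0.

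Outside the cell cycle, other single genes moved between early and late hours. The largest rises of the line difference were those of SEMG1, a semenogelin (5.01), SERPINB3, a squamous cell protease inhibitor (4.96), and DUSP6 (4.87). After subtraction of the untreated difference they were 3.39, 3.17 and 4.51. SERPINB3 was at 13.25 in PC9 and 10.37 in PC9M2 at 0 h and at 10.98 and 12.30 at 24 h. The largest falls were those of the glycolytic regulator PFKFB3 (-3.72), the costimulatory molecule CD86 (-3.54) and CYP17A1 (-3.52). After subtraction CYP17A1 kept its fall (-4.20), while PFKFB3 (-1.07, adjusted p = 0.47) and CD86 (0.55, adjusted p = 0.64) did not pass the test, and another PFKFB3 probe moved by 0.10 from the first to the last period.

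A second layer of differences was present with and without the drug. Under gefitinib all 26 PC9M2 arrays lay above all 26 PC9 arrays in 343 genes (2.59%) and below them in 272 (2.05%). The genes with the largest differences among those measured on every array of both lines are given with their differences in untreated cells.

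Higher in PC9M2 was PNPLA4, a lipase of retinyl esters and triglycerides, at 5.9 to 8.0 with a median of 7.5 in PC9 and at 11.6 to 12.6 with a median of 12.1 in PC9M2. It differed by 4.87 ± 0.12 (SE, adjusted p = 2.7e-23), against 4.54 without treatment, and by 2.58 on its other probe. CALB1, a calcium-binding protein, differed by 4.74 ± 0.09, and GPX2, a glutathione peroxidase and NRF2 target, by 4.11 ± 0.08 with the same 4.11 in untreated cells. AXL, a receptor tyrosine kinase whose activity is a known route around EGFR inhibition, was at 4.3 to 7.3 in PC9 with a median of 6.7 and at 9.3 to 11.7 in PC9M2 with a median of 10.5. It differed by 3.84 ± 0.14 (SE, adjusted p = 1.4e-19) and by 3.47 without treatment. The phosphodiesterase PDE2A (4.16 ± 0.10, untreated 3.07), the BMP target ID1 (4.03 ± 0.23, untreated 2.64) and the matrix proteoglycan SPOCK1 (3.55 ± 0.14, untreated 3.11) followed. MAGEA9 (4.20 ± 0.08) and VCX2 (4.23 ± 0.15) belong to the cancer-testis genes below, and 1 further gene of that rank, a Y-linked copy of the VCX family, is not given.

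Lower in PC9M2 was SUSD2, a membrane protein with a sushi domain, at 13.6 to 14.5 with a median of 14.1 in PC9 and at 8.6 to 9.4 with a median of 9.1 in PC9M2, a difference of -5.00 ± 0.06 (SE, adjusted p = 9.2e-31) against -4.45 without treatment. The cytochrome CYP4B1 (-4.11 ± 0.13, untreated -2.97), the small heat shock protein CRYAB (-4.03 ± 0.18, untreated -2.63) and the kidney cadherin CDH16 (-3.16 ± 0.09, untreated -1.75) were lower by more under the drug. SAA1, an acute phase protein, was lower by less (-3.75 ± 0.16, untreated -4.25), as was SAA2 (-3.52 ± 0.13, untreated -4.01), whose near-identical sequence makes the split between both uncertain. CIB3 (-3.66 ± 0.18), the chloride channel protein CLIC3 (-3.57 ± 0.15), the transcription factor NFE2 (-3.20 ± 0.11) and the stress protein NUPR1 (-3.18 ± 0.15) completed the set.

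**Figure D3:**
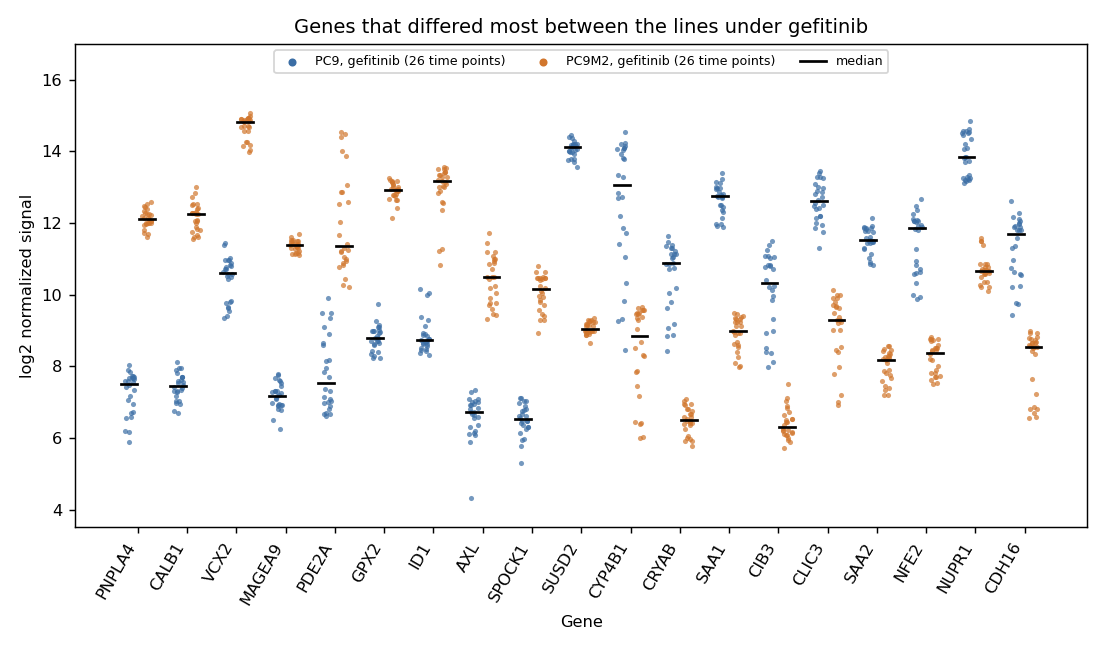
Log2 normalized signal on each of the 26 gefitinib arrays of PC9 (blue) and PC9M2 (orange) for the 19 genes with the largest differences among those well above background on every array, with the median as a black bar. PNPLA4 lay at 5.9 to 8.0 in PC9 and 11.6 to 12.6 in PC9M2, SUSD2 at 13.6 to 14.5 and 8.6 to 9.4.

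A few genes were measurable in 1 line only. Of 12 genes that were well above background on at least 25 PC9 arrays and on at most 1 PC9M2 array, PDZK1IP1, a small membrane protein of epithelia, had 0 PC9M2 arrays above background. By the probe used it was at least 14.9-fold lower there, and the potassium channel subunit KCNS1 at least 7.71-fold. GGT5, a gamma-glutamyltransferase, the secreted glycoprotein OLFM4 and the oxidized LDL receptor OLR1 were lower too, but had 1 PC9M2 array each above background, so that no exact fold is given. Other probes differed by -3.51 for PDZK1IP1, which is less than the bound of the probe used, -2.51 for GGT5 and -0.67 for OLFM4. The opposite case was 1 gene, FAM133A on the X chromosome, which was well above background on 1 PC9 and 26 PC9M2 arrays, so that no exact fold is given for it either.

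Interferon-stimulated genes were lower in PC9M2 with or without the drug. Of 28 tested, 22 were lower and 1 higher, with a median difference of -1.04, and 15 were at least 2-fold lower. Without treatment 24 were lower and 2 higher, with a median of -0.79. BST2, or tetherin, was at 8.4 to 9.6 with a median of 9.1 in PC9 and at 5.4 to 6.9 with a median of 6.1 in PC9M2, a difference of -2.93 ± 0.11 (SE, adjusted p = 2.2e-19) against -2.95 without treatment. IFI6, a mitochondrial survival protein, was at 8.5 to 11.6 with a median of 10.1 in PC9 and at 6.3 to 8.0 with a median of 7.2 in PC9M2, a difference of -2.84 ± 0.14 against -1.82 without treatment. Both promoters printed above hold the interferon element. IFI44 (-3.30 ± 0.19), IFIT2 (-2.00 ± 0.20) and HERC5 (-1.76 ± 0.20) were lower as well, SAMD9L was higher by 0.54 ± 0.17, and MX1 (-0.16 ± 0.09, adjusted p = 0.12) did not pass the test.

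Cancer-testis genes, which are normally expressed in the germ line, stood out in the other direction. Of 45 listed, 17 were bright enough to be tested, 12 were higher in PC9M2 and 1 lower, with a median of 1.12 (untreated 12 higher and 2 lower, median 0.86). All 5 tested members of the VCX and FAM9 families on the short arm of the X chromosome were higher. FAM9B was at 4.9 to 6.8 in PC9 and 10.8 to 11.9 in PC9M2 and differed by 4.98 ± 0.10, FAM9C by 3.93 ± 0.19 (another probe at -0.11), VCX2 by 4.23 ± 0.15, VCX by 2.80 ± 0.12 and VCX3A by 2.71 ± 0.12. The VCX copies are near-identical, so their probes may read each other's transcripts. MAGEA8 was higher by 2.68 ± 0.20, and MAGEA1 was lower by 0.75 ± 0.13.

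Enzymes of sterol and fatty acid synthesis were lower in PC9M2 under gefitinib in 20 of 27 tested and higher in 2, with a median of -0.51, against 10 lower and 7 higher with a median of -0.11 in untreated cells. The line difference was more negative under the drug in 21 of 27 and more positive in 0. SC5D, a late enzyme of cholesterol synthesis, differed by -1.64 ± 0.11 and by -1.16 without treatment, the acetate-activating enzyme ACSS2 by -1.47 ± 0.06 and -0.93, and the isomerase IDI1 by -1.19 ± 0.11 and -0.49. FDPS, which makes farnesyl pyrophosphate, differed by -1.54 ± 0.12 and was saturated on 15 PC9 arrays, so its PC9 level is a lower limit there.

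**Figure D4:**
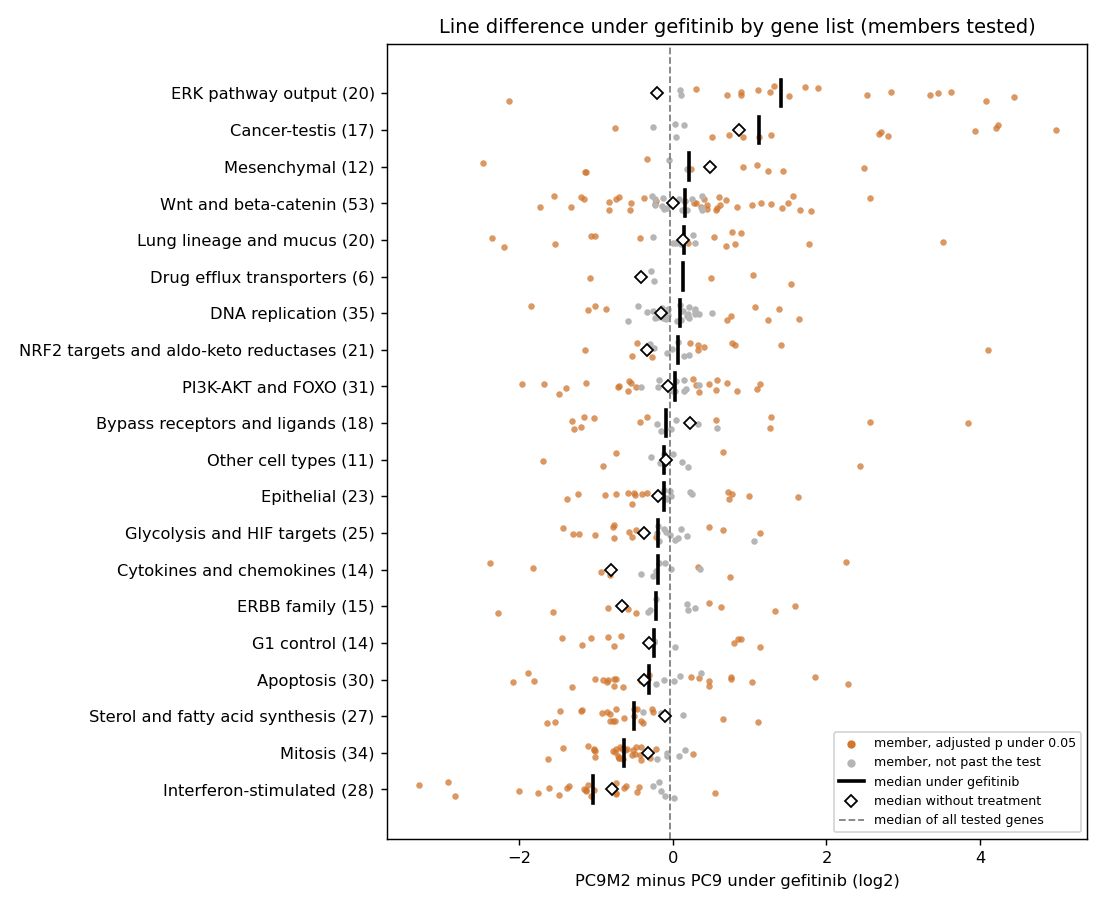
Line difference under gefitinib (PC9M2 minus PC9, log2) of the tested members of 20 gene lists, in orange where the adjusted p was under 0.05 and in grey elsewhere, with the list's median under gefitinib (black bar) and without treatment (diamond); the dashed line is the median of all tested genes, -0.03. The ERK output list had its medians farthest apart, 1.41 under gefitinib and -0.20 without it.

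Receptors and ligands that could feed the same pathways were mixed. EGFR was slightly lower in PC9M2, at 10.8 to 11.7 with a median of 11.0 against 11.2 to 12.1 with a median of 11.6 in PC9 (-0.49 ± 0.08; untreated -0.82). ERBB2 was higher by 0.63 ± 0.16 under the drug and by 1.50 without it, and ERBB3 was lower (-0.84 ± 0.11; untreated -0.66). Of 15 ERBB receptors, ligands and regulators tested, 4 were higher and 5 lower, among them the ligands AREG (1.59 ± 0.15), NRG4 (1.33 ± 0.25) and EGF itself (-2.28 ± 0.15). MET, a receptor that can replace EGFR, was well above background on 16 arrays of each line and did not pass the test (-0.02 ± 0.21, adjusted p = 0.94), while its brightest probe was higher in PC9M2 by 0.59 (adjusted p = 1.58e-06). Of 18 bypass receptors and ligands tested 5 were higher and 7 lower. Beside AXL, its ligand GAS6 was higher by 2.56 ± 0.18 (untreated 3.16), PDGFA by 1.28 ± 0.16 and IGF2 by 1.27 ± 0.13, although another probe of IGF2 differed by 0.06, and FGFR1 was lower (-1.03 ± 0.16; untreated 0.19).

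In the PI3K and AKT pathway 10 of 31 genes were higher and 11 lower, near the shares of all genes. AKT1 was higher by 0.47 ± 0.16 (adjusted p = 0.014), and the adaptor IRS1 by 1.13 ± 0.11, while the regulatory subunit PIK3R3 (-1.67 ± 0.22) was lower. Of 30 apoptosis genes 9 were higher and 15 lower. BCL2, which blocks mitochondrial apoptosis, was at 3.5 to 6.2 with a median of 4.9 in PC9 and at 6.0 to 7.9 with a median of 7.4 in PC9M2, a difference of 2.28 ± 0.12 (untreated 1.73). The lowest PC9 values of BCL2 are near or below what the array could measure. Its opponent BMF was higher as well (1.85 ± 0.20; untreated 1.45), as was the death ligand TNFSF10 (1.03 ± 0.09). BIM (BCL2L11), the mediator of death after EGFR inhibition, differed by -1.31 ± 0.23, with a brighter probe at 0.18. CASP10 (-2.08 ± 0.15) and the inhibitor of apoptosis BIRC3 (-1.81 ± 0.10) were lower.

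Wnt and β-catenin genes, which the study followed up, gave 22 of 53 higher and 14 lower, with a median of 0.16 (untreated 0.00). β-catenin (CTNNB1) was at 7.8 to 10.1 with a median of 8.8 in PC9 and at 8.5 to 11.5 with a median of 10.3 in PC9M2, higher at 24 of 26 time points by 1.50 ± 0.17 (untreated 1.31). Its partner LEF1 was higher by 1.57 ± 0.10 (untreated 1.51), with another probe at 0.18, and the kinase GSK3A by 0.70 ± 0.06. Among 13 receptors 6 were higher and 1 lower, with FZD7 at 1.42 ± 0.08 (untreated 0.57), FZD5 at 1.15 ± 0.10 (untreated 0.61; other probes 0.41 and 0.46) and FZD9 at 0.60 ± 0.09 (untreated 0.51). Among 13 ligands 3 were higher and 7 lower, WNT5A being higher by 1.28 ± 0.15. Of 6 secreted and surface inhibitors 5 were higher and 0 lower, with DKK3 at 2.57 ± 0.18 (other probes 0.52 and 1.13), SFRP1 at 1.80 ± 0.13 and DKK1 at 1.66 ± 0.17. Of 8 feedback and target genes 2 were higher and 3 lower, and AXIN2, the classic target of β-catenin, did not pass the test (0.15 ± 0.11, adjusted p = 0.23; untreated 0.00). The study reported higher AXIN2 mRNA in PC9M2 by quantitative RT-PCR in cells at steady state. That assay and condition differ from the arrays of starved cells given here.

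Cell identity genes did not move one way. Of 23 epithelial genes 5 were higher and 10 lower, with CDH1 (-0.08 ± 0.08, adjusted p = 0.39) and EPCAM (0.22 ± 0.11, adjusted p = 0.076) not past the test, and of 12 mesenchymal genes 6 were higher and 4 lower. Among the latter the matrix protein tenascin C (TNC) was higher by 2.49 ± 0.14 (untreated 0.79), and vimentin (VIM, -1.13 ± 0.10), SPARC (-2.47 ± 0.25) and SNAI1 (-1.14 ± 0.13) were lower. KRT18 and KRT19 were saturated on all 26 PC9 arrays, so no fold is given for them, and the probes of KRT8 differed in sign. Lung and mucus genes gave 8 of 20 higher and 6 lower: the trefoil factor TFF1 (3.52 ± 0.17) and the lineage factor FOXA1 (1.77 ± 0.10) were higher, surfactant protein D (SFTPD, -2.35 ± 0.12) and SOX2 (-2.20 ± 0.22; untreated -0.14) lower. Among drug efflux transporters ABCC3 was higher by 1.54 ± 0.14 (untreated 0.38) and ABCC2 by 1.04 ± 0.08, while ABCC5 was lower (-1.08 ± 0.10). Of 21 NRF2 targets and reductases 8 were higher and 5 lower, with the glutathione enzyme GCLC at 1.41 ± 0.10 and HMOX1 at -1.14 ± 0.10 beside GPX2. Of 14 cytokines and chemokines 3 were higher and 4 lower, with interleukin 1 beta (IL1B) at 2.25 ± 0.13 and CXCL10 at -2.38 ± 0.20, and of 25 glycolysis and HIF targets 3 were higher and 11 lower. Of the 11 tested markers of other cell types lysozyme (LYZ) was higher by 2.44 ± 0.20 and von Willebrand factor (VWF) lower (-1.69 ± 0.05; another probe at -0.10). The LYZ probe was well above background on 6 PC9 and 25 PC9M2 arrays, so the size of its difference is uncertain. The part of these markers in the other differences was not tested.

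The difference was also taken along the chromosomes, as a description with no test. In windows of 15 successive tested genes the median difference ran from -1.19 to 1.13 over 12925 windows, with a median of -0.03. The highest window, on chromosome 2 from GORASP2 to CDCA7, had 12 genes higher and 2 lower and a median of 1.13 (untreated 1.02). It ended in 7 successive genes that were each at least 2-fold higher, among them DLX1 (2.47 ± 0.17), the integrin subunit ITGA6 (3.22 ± 0.24), PDK1 (1.13 ± 0.22) and CDCA7 (2.51 ± 0.35). The next, on the X chromosome from ARSF to MSL3, held VCX3A, VCX, PNPLA4, VCX2 and FAM9B and had a median of 1.12 (untreated 0.68), with STS within it lower (-1.62 ± 0.13). On chromosome 17, from PMP22 (2.97 ± 0.09) to ZNF624, 14 genes were higher and 1 lower, with a median of 1.05. The lowest window, on chromosome 12 from CD63 to PA2G4 and including ERBB3, had all 15 genes lower and a median of -1.19 (untreated -1.10), on a chromosome whose tested genes had a median of -0.32. Chromosome 22 had a like median of -0.34 over its 323 tested genes. The next lowest windows were a histone cluster on chromosome 6 (-1.10) and a stretch on chromosome 11 from SAA4 to NAV2 (-1.01). On chromosome 20, the cystatins CST3, CST1, CST2, CST5 and CST7 were each at least 2-fold lower, CST1 by 2.77 ± 0.12, and so were KCNS1, WFDC5, WFDC12, PI3 and SEMG1. On chromosome 7, 6 successive genes were at least 2-fold higher, STEAP1 by 2.08 ± 0.34 with -0.42 in untreated cells.

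**Figure D5:**
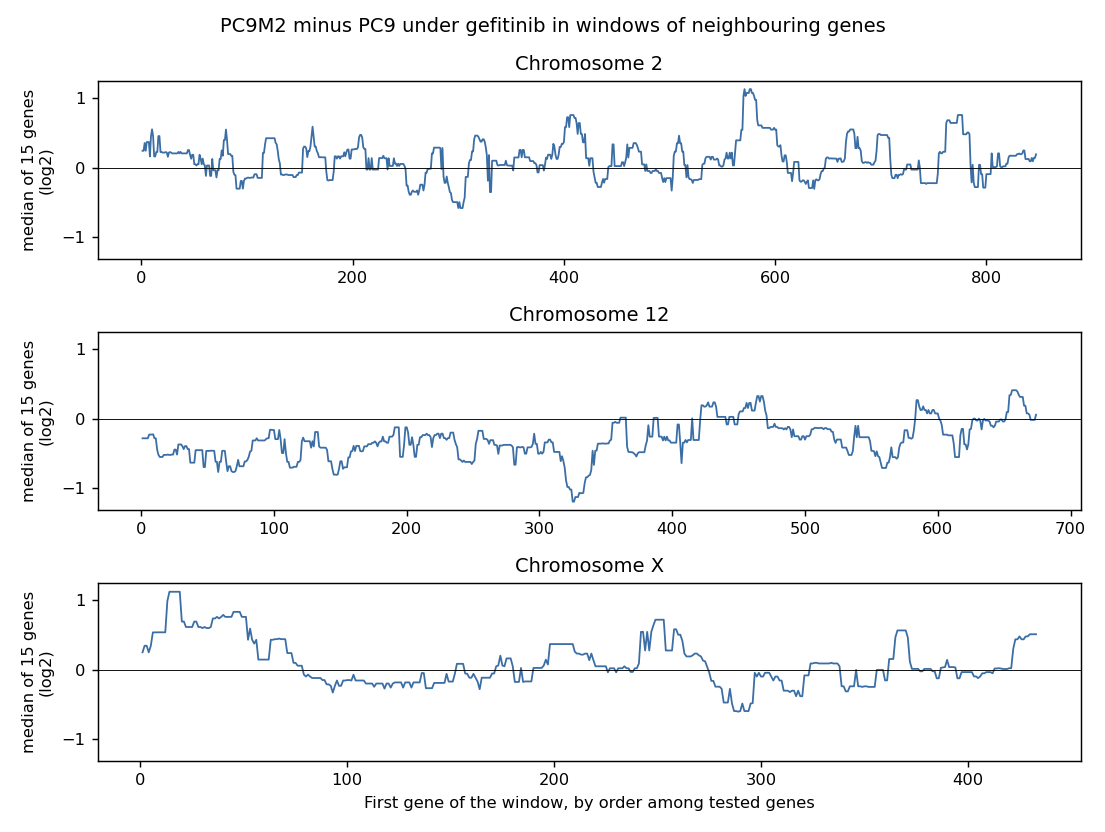
Median line difference under gefitinib (PC9M2 minus PC9, log2) in windows of 15 successive tested genes along chromosomes 2, 12 and X, by gene order. The highest windows reached 1.13 on chromosome 2 and 1.12 on X, and on chromosome 12, where 578 of 674 windows lay below 0, the lowest reached -1.19.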

How the data were processed

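RNA of PC9 and PC9M2 was hybridized to one-colour 44K arrays. The deposited per-array files hold the scanner's processed intensity of each spot, background-subtracted by the authors' scanner software (Feature Extraction 10.5.1.1) and not normalized between arrays. The authors also deposited a table of quantile-normalized intensities on a linear scale, which was used as an alternative. Here the processed signal was quantile-normalized over 208 arrays, floored at 1 and taken to log2, with outlier spots left out (0.0789% of tested values). Of 41000 probes 24794 carried a gene symbol, and a gene was represented by its most variable probe. Genes entered the tests if 13 or more of the 26 arrays of any of the 8 time courses showed the probe well above background, which left 13254 of 16961 genes. The number of arrays limits the precision.

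The 26 differences between the lines at the same time point were tested with limma 3.58.1 in R 4.3.3 (moderated test, two-sided, Benjamini-Hochberg adjusted p under 0.05). The same test was run on the untreated courses, on EGF with gefitinib, on the gefitinib minus untreated difference, and on the last (16 to 24 h) against the first (0 to 7 h) period. The script was tested on simulated data with 200 changed genes.

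Genes named were the 10 largest differences in each direction measured on every array, the 5 with the largest bound among genes measured in 1 line only, the 8 largest gefitinib minus untreated differences in each direction at 23 or more time points, the 3 largest late rises and falls, up to 5 called and role-defining members of each of 20 gene lists, genes the study followed, and members of neighbouring groups. The members, lists and rules were chosen with earlier results of these data known. A bound was taken against the lowest signal well above background. The array annotation uses build hg18; gene order and promoters are from RefSeq on GRCh38.p14. Alternatives in normalization, background, floor, probe, filter, outlying points, saturation, pairing, test, time points and scan day were run. Some list members are not reported by name here.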

Additional observations from a re-analysis of the deposited data

Results flagged for a closer look

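The genes covered here were named for the largest line differences, for the largest gefitinib minus untreated differences, or because the study followed them. Among them the line difference of 36 differed between gefitinib and no treatment in the limma test of that difference itself. Genes named only as members of a gene list are not counted here. Each value below is the gefitinib minus the untreated line difference in log2 units over 26 time points. Genes were partly chosen by this same contrast, so the first 16 values are a description. It was most positive for DUSP6 (4.64), EGR1 (4.37), ETV5 (3.69), SPRY4 (3.37), DOK7 (2.97), CXCL8 (2.92), EGR2 (2.85) and SPRED2 (2.74). The CXCL8 value comes from the untreated arrays, as its probe was not well above background under gefitinib in either line. It was most negative for RADIL (-3.82), GPER1 (-3.21), PRODH (-2.96), CYP17A1 (-2.96), TRIM63 (-2.66), ZBED2 (-2.58), KCNJ13 (-2.55) and SCIN (-2.50). The size of the RADIL value is uncertain, as its untreated levels were near or below what the array could measure in both lines.

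The next genes were chosen for a large line difference under gefitinib. That choice by itself favours a larger value under gefitinib, so their values are a description too. Of those higher in PC9M2, the ones that passed this test were higher by more under gefitinib: PNPLA4 (0.34), CALB1 (0.22), VCX2 (0.36), MAGEA9 (0.34), PDE2A (1.09), ID1 (1.40), AXL (0.37) and SPOCK1 (0.44). GPX2, chosen by the same rule, is not among them. Of those lower in PC9M2, the ones that passed were lower by more for SUSD2 (-0.55), CYP4B1 (-1.14), CRYAB (-1.40), CIB3 (-0.40), NFE2 (-0.40) and CDH16 (-1.41), and lower by less for SAA1 (0.50) and SAA2 (0.49). Of the genes the study followed, the test was passed by EGFR (0.33), FZD5 (0.54), FZD7 (0.84) and ERBB2 (-0.86).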

How the results depend on the processing

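Of 2767 values of 155 named genes under the alternatives, 2692 kept the direction and the side of the threshold of the line difference, 41 fell short of it, 20 newly passed it and 14 changed sign. Arrays at neighbouring times were alike (median lag-1 autocorrelation 0.460 for the line difference and 0.110 for the gefitinib minus untreated difference), so p-values over time points may be too small. With time points 3 h apart, 2850 genes were higher and 2959 lower, and the line difference was more positive under gefitinib in 508 and more negative in 540. With the first 13 time points these were 462 and 605. After normexp correction, computed on the median signal, 318 genes were at least 2-fold higher and 334 lower. With scan day as a random block, 3008 genes changed from the first to the last period, of 6237, and 2390 did in the contrast of the gefitinib minus untreated difference. That contrast, and leaving out 0.5 h under EGF with gefitinib (4122 higher, 4734 lower), were chosen after seeing the data. The study's methods used a one-sided paired t-test for higher expression in PC9M2. A two-sided paired t-test called 4038 genes higher and 4501 lower after Benjamini-Hochberg adjustment.

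The pairing by time follows the study's methods. Deviations of same-time arrays of both lines correlated at a median of 0.0013 over genes (9 of 26 over 0.1), and 1 of 26 time points matched its own partner best. With no replicate block, that is without the pairing, 4048 genes were higher and 4523 lower, and the difference was more positive under gefitinib in 1000 and more negative in 1025.

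The gefitinib minus untreated difference changed sign in the first 13 time points for PNPLA4 (-0.0537), VCX2 (-0.0665), SAA1 (-0.131), SAA2 (-0.0436) and CIB3 (0.0241), and under normexp for CALB1 (-0.12), AXL (-0.0025) and CIB3 (0.19). The line difference changed sign in the first 13 time points for CD86 (0.51), DUSP5 (-0.40), POLE2 (-0.40) and GINS2 (-1.22), and in the last 13 for SEMG1 (0.91), SERPINB3 (1.94), RRM2 (0.93), MCM10 (1.35), CDC45 (1.04) and CCNE2 (1.02). With the brightest probe it did so for MET (0.59), BCL2L11 (0.18), CDKN1B (0.45) and KRT8 (0.30), as did the late minus early difference of PFKFB3 (0.10). The cause was not tested. Saturation on PC9 arrays bounds bright genes, and probes near background bound dim ones.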
